A study of Mus musculus with 16 samples.

Results

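The comparison of day 12 with day 8 of doxycycline treatment was followed across all genes in AML246, a mouse acute myeloid leukaemia line kept in interleukin-3. Its members were the 2 libraries titled Day12 (replicates A and B, total viable cells, 12 days of doxycycline at 0.1 µg/mL) and the 2 libraries titled Day8 (replicates A and B, total viable cells, 8 days at the same dose), 4 of the 16 RNA-seq libraries of the series, chosen by title. The Cd11b-high cells sorted at day 12 were left out of both groups and are used only as context, with the libraries of day 4 and of untreated cells at day 0. All groups are the same cell line, and the series title ties the drug to the restoration of PU.1. The construct behind that switch is not described in the sources used here. No untreated library of day 8 or day 12 is analysed here, so days of culture and days on the drug cannot be told apart. Whether A and B came from separate cultures is not in the labels, and the p-values may therefore rest on technical spread alone.

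PU.1, the product of Spi1, is an ETS-family transcription factor that directs progenitors towards the granulocyte and macrophage lineages. Granulocytes make their granule proteins in turn. Azurophil proteins such as myeloperoxidase come first, in promyelocytes, and the specific proteins of neutrophils or the cationic proteins of eosinophils come as the cells mature. Eosinophils, basophils and mast cells share GATA factors and respond to interleukin-3 and its relatives.

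Both Day12 libraries were sequenced more deeply, with 23387034 and 26509803 counts, against 14650316 and 15927004 in the Day8 libraries. The share of counts on mitochondrially encoded genes was 2.01% and 2.12% at day 12, against 2.79% and 2.29% at day 8. The part of depth and of this share in the results was not tested, except that a fit without the 15 mitochondrially encoded genes gave 222 genes higher and 64 lower. Levels are read counts set relative to library size after TMM scaling (CPM). A gene is called when its p in the quasi-likelihood F test of edgeR, fitted over all 16 libraries and adjusted by Benjamini and Hochberg's method, is under 0.05. With 2 libraries a side, an exact two-sided permutation test of 1 gene could not go below p = 0.333, so the calls rest on the spread shared across genes and libraries.

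Neither the restored factor nor the surface marker of the sort passed the test over this interval in the fit of all 16 libraries. Spi1 stood at 225.6 and 218.9 CPM in the Day12 libraries, against 186.3 and 207.8 CPM in the Day8 libraries. The groups did not overlap, but edgeR did not call the difference (adjusted p = 0.612, log2 fold 0.17, SE 0.15). Itgam, the gene of the Cd11b integrin chain, stood at 719.5 and 669.5 CPM at day 12, against 560.4 and 581.3 CPM at day 8 (log2 fold 0.28, SE 0.16, edgeR adjusted p = 0.413). Of 10 other settings that kept the 4 compared libraries, 1 called Itgam, the fit of these 4 alone, and 0 called Spi1. At day 0 Itgam had been at 1.41 and 1.77 CPM.

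Between day 12 and day 8, edgeR called 306 of 13652 genes (2.24%), 248 higher (1.82%) and 58 lower (0.425%) at day 12. Of these, 109 were more than 2-fold higher (0.798%) and 22 more than 2-fold lower (0.161%). At an unadjusted p under 0.05 there were 2055 genes (15.1%), and the 2 groups did not overlap in 8740 genes (64%), the 306 called ones among them. The median log2 fold of all genes was 0. The number of calls rested on the spread that was assumed. Fitted on the 4 compared libraries alone, 1825 genes were higher and 1577 lower, so that 53.6% of calls were rises, against 81% in the fit of all 16. Without the 6 libraries taken after withdrawal the counts were 669 and 435, with 60.6% rises, and scaling by library size alone gave 168 and 86, with 66.1% rises. Leaving out 1 library left 63 higher and 14 lower (without Day8 A), 94 and 19 (without Day8 B), 90 and 11 (without Day12 A), or 92 and 8 (without Day12 B). None of the 306 genes was called in the opposite direction under any of these settings. Each setting reused libraries that did not overlap in these genes, so a reversal was hardly possible and its absence says little. Of the 75 called genes named below, 36 kept their call whichever of the 4 libraries was left out, and 24 lost it each time.

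**Figure D1:**
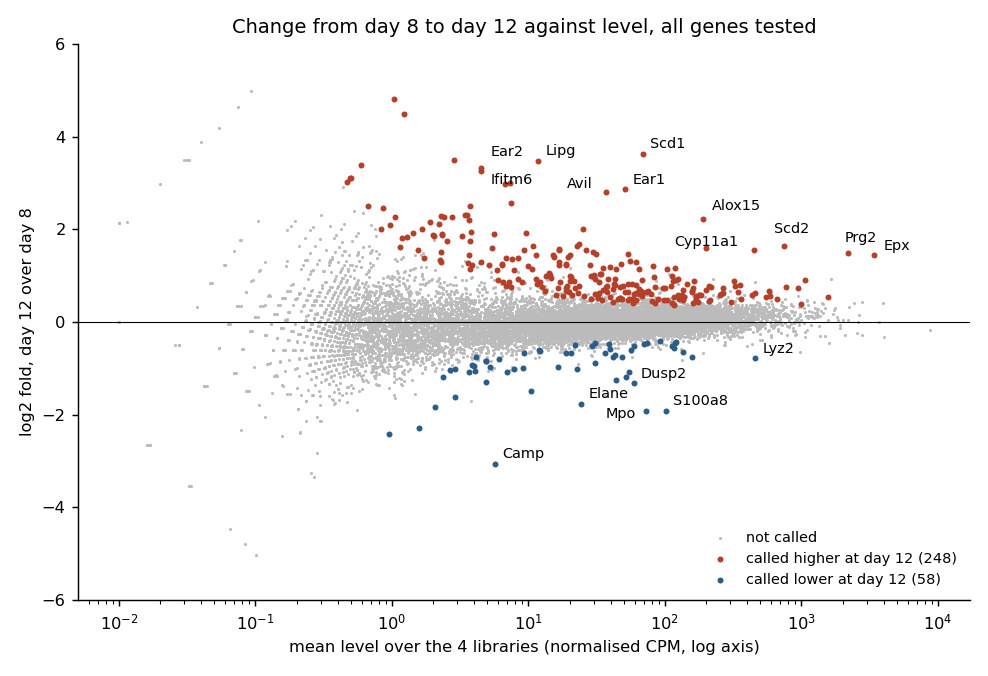
Log2 fold of day 12 over day 8 (vertical axis) against the mean normalised CPM of the 4 libraries (horizontal log axis) for all 13652 genes, with the 248 genes called higher and the 58 called lower coloured. Rises outnumber falls among the called genes, and Scd1, Ear1, Alox15, Prg2 and Epx stand apart above the cloud.

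Eosinophil genes formed the group with the greatest median rise of the 40 lists examined. Of 10 measured eosinophil markers, 8 rose and 0 fell, with a median log2 fold of 1.81 over the 10, beside a median of 0 over all genes. Here and in the lists below, counts for day 12 over day 8 stand beside 1.82% of all genes called higher and 0.425% lower. Their summed level was 8587 and 9581 CPM at day 12, against 3081 and 3444 CPM at day 8. Ear1 (chromosome 14), a ribonuclease of eosinophil granules, stood at 88.9 and 91.7 CPM in the Day12 libraries, against 11.9 and 12.8 CPM in the Day8 libraries. This was a 7.30-fold rise (log2 fold 2.87, SE 0.22, edgeR adjusted p = 3.6e-06). Alox15 (chromosome 11), the 12/15-lipoxygenase that oxygenates arachidonic acid, stood at 313.1 and 314.0 CPM, against 65.8 and 67.6 CPM (log2 fold 2.23, SE 0.24, edgeR adjusted p = 0.00017). In both genes the replicates lay close together and the 2 days far apart. Epx, the eosinophil peroxidase, was at 4704 and 5255 CPM at day 12, against 1682 and 1992 CPM at day 8 (log2 fold 1.44, edgeR adjusted p = 0.0295). Prg2, the major basic protein, was at 3028 and 3414 CPM, against 1126 and 1170 CPM (log2 fold 1.49, edgeR adjusted p = 0.0019). Epx and Prg2 are given as list members chosen after their values were seen. Ccr3, the eotaxin receptor, was at 13.8 and 11.5 CPM at day 12, against 2.43 and 1.85 CPM at day 8 (log2 fold 2.56, SE 0.23). Prg3, a homologue of the major basic protein that lies 4563 bases from Prg2 on chromosome 2, had a log2 fold of 1.61 (SE 0.32), and its call was lost without any 1 of the 4 libraries (edgeR adjusted p up to 0.2) and without the 6 withdrawal libraries (0.071). The markers that were not called were Il5ra, the interleukin-5 receptor chain, at 39.3 and 41.7 CPM at day 12, against 26.9 and 28.2 CPM at day 8 (log2 fold 0.56), and Siglecf, a sialic acid receptor of eosinophils, at 80.3 and 78.2 CPM, against 58.7 and 61.1 CPM (log2 fold 0.40). Leaving out 1 library left 5 calls in the list (without Day8 A) or 6 (without any 1 of the others), with medians from 1.66 to 1.94. In bulk RNA, fewer cells of a type and less RNA per cell cannot be told apart, and these counts do not say how many cells carried the message.

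The ribonuclease genes of the Ear family could share reads. Ear2 stood at 7.75 and 8.67 CPM at day 12, against 0.878 and 0.765 CPM at day 8 (log2 fold 3.31, SE 0.34), and no read was counted at day 4. Ear6 stood at 35.8 and 45.0 CPM at day 12, against 9.05 and 10.97 CPM at day 8 (log2 fold 2.01, SE 0.28). Per length, Ear1 reached 127 RPKM at day 12, Ear6 56.7 and Ear2 11.5. The first annotated transcripts of Ear1 and Ear2 were identical at 96.0% of aligned bases, and those of Ear1 and Ear6 at 88.5%, so how reads were divided among them is uncertain. Rnase12, another member of the ribonuclease family, rose too, at 14.5 and 18.3 CPM, against 5.74 and 4.78 CPM (log2 fold 1.64, SE 0.26), a call lost without 1 of the 4 libraries (edgeR adjusted p up to 0.063). The 250 bases before the starts of Ear1 and Ear2 are shown because the pair that rose together is almost identical there as well, at 246 of 252 aligned positions (97.6%). Both are from RefSeq, GRCm38.p6, on the strand of the gene, chr14:43819640-43819889 (minus) and chr14:44102404-44102653 (plus), with the letters CCAATC of an NF-Y box in capitals.
Ear1: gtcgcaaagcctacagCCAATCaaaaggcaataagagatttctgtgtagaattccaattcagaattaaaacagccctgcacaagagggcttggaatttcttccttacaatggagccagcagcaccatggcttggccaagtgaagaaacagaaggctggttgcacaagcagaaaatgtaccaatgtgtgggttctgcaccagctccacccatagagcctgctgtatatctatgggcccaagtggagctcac
Ear2: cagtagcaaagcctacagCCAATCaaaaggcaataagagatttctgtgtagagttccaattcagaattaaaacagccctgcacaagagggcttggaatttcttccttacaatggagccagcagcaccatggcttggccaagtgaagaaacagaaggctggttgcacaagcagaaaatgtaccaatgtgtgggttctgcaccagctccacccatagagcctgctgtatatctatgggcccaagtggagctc

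Basophil and mast cell genes moved up in the same libraries. Of 9 measured basophil and mast cell markers, 5 rose and 0 fell (median log2 fold 1.21), and their summed level was 2334 and 2347 CPM at day 12, against 1501 and 1588 CPM at day 8. In untreated cells at day 0 the sum had been higher, at 3190 and 2543 CPM. By day 4, 8 of the 9 were called lower and 0 higher, where 31% and 28.2% of all genes were, and the sum was 696.7 and 811.5 CPM. Mcpt8, a basophil protease, stood at 26.8 and 26.0 CPM at day 12, against 11.8 and 10.7 CPM at day 8 (log2 fold 1.23, SE 0.14, edgeR adjusted p = 0.000197). Cpa3, the mast cell carboxypeptidase, was at 1183 CPM in both Day12 libraries, against 696.3 and 722.2 CPM (log2 fold 0.74, SE 0.14). Il1rl1, the interleukin-33 receptor and the member called among 18 cytokine and growth factor receptors (1 higher, 0 lower, median 0.18), was at 112.2 and 115.3 CPM, against 52.2 and 46.1 CPM (log2 fold 1.21, SE 0.23). Prss34, a basophil protease, had a log2 fold of 1.29 (SE 0.22). The days did not overlap in any of these 4 genes, yet the list kept 1 call without Day8 A, Day8 B or Day12 B and 2 without Day12 A, and only Mcpt8 among these genes kept its call each time. Gata1, a zinc-finger factor of the eosinophil, mast cell and erythroid lineages, was at 42.4 and 46.9 CPM at day 12, against 21.5 and 22.1 CPM at day 8 (log2 fold 1.03, SE 0.24, edgeR adjusted p = 0.036). At day 0 it had been at 59.5 and 29.1 CPM. Gata1 lost its call without any 1 of the 4 libraries (edgeR adjusted p up to 0.33), by library size alone (0.053) and without the withdrawal libraries (0.059). Gata2 was not called, at 517.3 and 528.6 CPM, against 350.1 and 380.0 CPM (log2 fold 0.52, edgeR adjusted p = 0.115).

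GATA factors bind the letters AGATAA. Genes with those letters were counted on both strands of the 250 bases before each start in RefSeq's promoter table. A gene counted if any of its starts had a match, so genes with more starts had more chances. Many of those starts lie inside the gene. Of the 10257 tested genes, 4678 had no start at the first base of the gene, so their windows reached into it. Of these, 1922 had no start within 250 bases of that base. The letters stood in 26 of the 192 genes higher at day 12 with a promoter in the table (13.5%) and in 2 of the 48 lower ones (4.17%). They stood in 769 of the 10257 tested genes there (7.5%) and in 11.4% of all 27025 genes of the table. They were in 4 of 9 basophil and mast cell genes and in 2 of 8 eosinophil genes. The Prss34 window is shown as that of a basophil gene that rose, with a match 31 bases before the start (RefSeq, GRCm38.p6, chr17:25298294-25298393, plus strand, AGATAA in capitals).
Prss34: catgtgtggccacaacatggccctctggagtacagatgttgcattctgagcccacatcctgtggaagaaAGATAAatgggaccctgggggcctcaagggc

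Azurophil granule genes, made early in the granulocyte path, went the other way. Of 8 measured members, 0 rose and 4 fell, with a median log2 fold of -0.82. Of all genes, 1.82% were called higher and 0.425% lower. Mpo (chromosome 11), myeloperoxidase, which makes hypochlorous acid, stood at 32.2 and 28.4 CPM at day 12, against 115.0 and 113.2 CPM at day 8 (log2 fold -1.91, SE 0.18, edgeR adjusted p = 3.7e-05). Elane (chromosome 10), neutrophil elastase, stood at 11.6 and 10.7 CPM, against 38.9 and 36.5 CPM (log2 fold -1.76, SE 0.20, edgeR adjusted p = 0.00017). Both genes fell by more than 3-fold with close replicates, and their calls held without any 1 of the 4 libraries. Ctsg, cathepsin G, was at 37.7 and 32.7 CPM at day 12, against 76.2 and 72.6 CPM at day 8 (log2 fold -1.08, SE 0.16). Prtn3, proteinase 3, was at 123.0 and 110.8 CPM, against 202.4 and 193.7 CPM (log2 fold -0.76, SE 0.18), and that call was lost without any 1 library (edgeR adjusted p up to 0.33). The 4 members that were not called were Ms4a3 (log2 fold -0.87), Prss57 (-0.29), Ctsc (0.16) and Srgn (0.37). Mpo and Epx are sister peroxidases and near neighbours, 59584 bases apart with the genes Lpo and Mks1 between them (GRCm38), and one fell while the other rose. Elane, Prtn3 and Plppr3 lie side by side on chromosome 10, with gaps of 3137 and 4708 bases, and all fell. Plppr3, a phospholipid phosphatase-related membrane protein, was at 36.4 and 35.9 CPM at day 12, against 59.1 and 62.9 CPM at day 8 (log2 fold -0.75, SE 0.16, edgeR adjusted p up to 0.2 without 1 library).

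The letters GAGGAAG are a core sequence bound by PU.1. On either strand of the 250 bases before a start, they were found in 5 of the 7 azurophil genes with a promoter in the table (71.4%). The share was 13.1% over tested genes and 12.0% over all genes of the table. They were in 12 of 48 lower genes (25.0%) and in 37 of 192 higher genes (19.3%). Lists whose called members rose held them too, in 4 of 9 fatty acid synthesis genes (44.4%) and 2 of 9 basophil and mast cell genes (22.2%). They were in 3 of 18 cholesterol synthesis genes (16.7%) and 1 of 8 eosinophil genes (12.5%). Windows of 3 azurophil genes that fell are shown with these letters in capitals, 85, 95 and 216 bases before the starts of Elane, Prtn3 and Ctsg (RefSeq, GRCm38.p6, chr10:79886147-79886246 plus, chr10:79879514-79879613 plus and chr14:56102725-56102824 minus).
Elane: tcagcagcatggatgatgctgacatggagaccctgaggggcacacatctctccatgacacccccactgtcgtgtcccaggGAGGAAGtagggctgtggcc
Prtn3: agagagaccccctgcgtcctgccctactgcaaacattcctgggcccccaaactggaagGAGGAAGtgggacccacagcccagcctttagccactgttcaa
Ctsg: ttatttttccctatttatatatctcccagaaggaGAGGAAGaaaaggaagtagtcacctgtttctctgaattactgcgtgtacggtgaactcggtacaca

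Neutrophil secondary granule and maturation genes split. Of 15 measured members, 3 rose and 3 fell (median log2 fold 0.17). Camp, the cathelicidin antimicrobial peptide, stood at 1.19 and 1.24 CPM at day 12, against 11.8 and 8.48 CPM at day 8 (log2 fold -3.06, SE 0.33, edgeR adjusted p = 0.00013). S100a8 (chromosome 3), a calprotectin subunit, stood at 47.4 and 37.7 CPM, against 182.0 and 138.9 CPM (log2 fold -1.92, SE 0.23, edgeR adjusted p = 0.00034). Both fell in each Day12 library relative to each Day8 library. Its partner S100a9 was at 367.2 CPM in both Day12 libraries, against 545.4 and 469.8 CPM, and was not called (log2 fold -0.47, SE 0.23, edgeR adjusted p = 0.364). Ngp, a neutrophil granule protein, had a log2 fold of -1.0 (SE 0.24), a call lost without any 1 library (edgeR adjusted p up to 0.46). Lcn2, a siderophore-binding granule protein, was at 177.1 and 169.8 CPM, against 189.9 and 202.4 CPM (log2 fold -0.18). In the other direction, Ifitm6, an interferon-induced transmembrane protein, stood at 7.84 and 8.55 CPM at day 12, against 0.878 and 0.829 CPM at day 8 (log2 fold 3.26, SE 0.25, edgeR adjusted p = 6.1e-06). Padi4, an arginine deiminase of granulocytes, was 2.21-fold higher (log2 fold 1.14, SE 0.12). Mmp8, the neutrophil collagenase, was the third rise (log2 fold 1.30, edgeR adjusted p = 0.038). Without any 1 library 2 rises and 2 falls were left in the list.

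**Figure D2:**
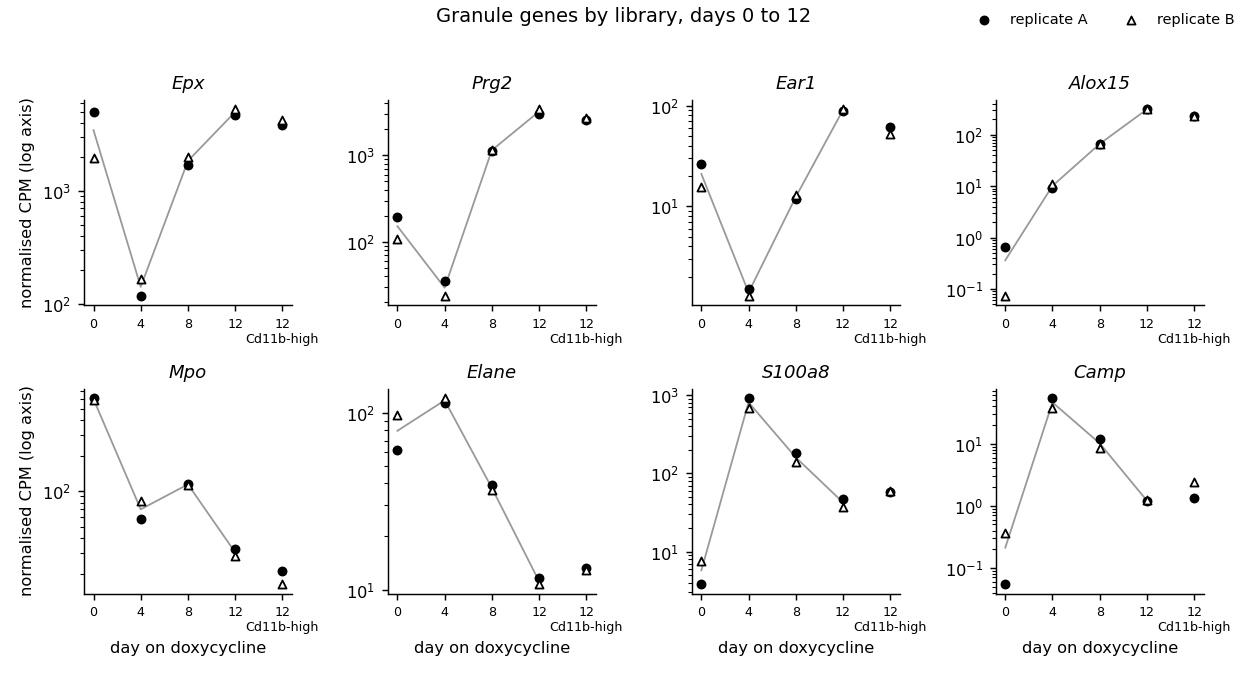
Normalised CPM (log axes) of 8 granule genes in each library at days 0, 4, 8 and 12 and in Cd11b-high cells of day 12, with circles for replicate A, triangles for replicate B and a line through the means of total cells. From day 8 to day 12 the upper 4 genes are higher and the lower 4 lower in both replicates, with Epx at 4704 and 5255 CPM at day 12 and Camp at 1.19 and 1.24 CPM.

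Genes that make fatty acids and cholesterol rose together. Of 12 fatty acid synthesis genes, 9 rose and 0 fell (median log2 fold 0.89), and of 25 cholesterol synthesis genes, 15 rose and 0 fell (median log2 fold 0.58). All 12 and all 25 had a fitted fold above 1. Scd1 (chromosome 19), a stearoyl-CoA desaturase that makes oleic acid, had the greatest rise among called genes that averaged 10 CPM or more. It stood at 128.2 and 128.4 CPM in the Day12 libraries, against 7.97 and 12.6 CPM in the Day8 libraries, a 12.4-fold difference (log2 fold 3.63, SE 0.22, edgeR adjusted p = 1.1e-06). Scd2 lies 87585 bases away, with the gene Scd4 between them. Scd2 stood at 1123 and 1150 CPM, against 334.6 and 395.4 CPM (log2 fold 1.64, SE 0.19, edgeR adjusted p = 0.00017). Per length, Scd2 was at 208 RPKM at day 12 and Scd1 at 26.5 RPKM, against 66.9 and 2.13 RPKM at day 8. Acsl3, a long-chain acyl-CoA synthetase, was at 38.8 and 42.4 CPM, against 20.7 and 22.1 CPM (log2 fold 0.92, SE 0.11). Fasn, the fatty acid synthase, was at 992.0 and 950.9 CPM, against 523.1 and 621.1 CPM (log2 fold 0.76). Acaca (log2 fold 1.02), Elovl6 (0.91), Fads2 (0.88), Srebf1 (0.77) and Acly (0.67) were the other called members, and they carboxylate acetyl-CoA, elongate and desaturate chains, control the pathway and supply acetyl-CoA.

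In the cholesterol path, Lss, the lanosterol synthase, stood at 111.6 and 108.3 CPM at day 12, against 54.5 and 56.8 CPM at day 8 (log2 fold 0.98, SE 0.14, edgeR adjusted p = 0.0011). Fdps, the farnesyl diphosphate synthase, stood at 161.9 and 164.5 CPM, against 79.8 and 91.1 CPM (log2 fold 0.93, SE 0.14, edgeR adjusted p = 0.0021). Hmgcs1, which makes HMG-CoA, stood at 148.6 and 149.3 CPM, against 78.7 and 81.8 CPM (log2 fold 0.89, SE 0.13, edgeR adjusted p = 0.00097). Each of these was close to 2-fold higher, and no Day12 library overlapped a Day8 one. Further calls fell on Nsdhl (log2 fold 0.83), Cyp51 (0.81), Dhcr7 (0.73) and Sqle (0.62), which encode enzymes of the path, on Insig1 (0.76), its sterol-sensing brake, and on Srebf2 (0.53), its main transcription factor. Members that were not called ranged up to a log2 fold of 0.54 (Hsd17b7). These counts leaned on single libraries. The cholesterol list kept 2 calls without Day8 A, 11 without Day8 B, 4 without Day12 A and 6 without Day12 B, and the fatty acid list kept 4, 6, 6 and 5, with medians of 0.47 to 0.69 and of 0.78 to 0.99. Scd1, Scd2, Acsl3, Lss and Hmgcs1 held in each of these fits, and Fdps was lost in 1 (edgeR adjusted p up to 0.074).

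At day 8 these genes were at a low point. In the order of days 0, 4, 8 and 12, the 2 libraries of Scd1 stood at 88.9 and 120.7, 106.8 and 148.7, 7.97 and 12.6, and 128.2 and 128.4 CPM. Scd1, Scd2, Acsl3, Srebf1, Lss, Fdps, Hmgcs1 and Insig1 all had their lowest values of the 4 days in the Day8 libraries. Day 8 over day 4 gave 0 rises and 6 falls in the fatty acid list (median log2 fold -0.57), and 0 rises and 18 falls in the cholesterol list (median -0.54), where edgeR called 6.78% of all genes higher and 7.16% lower. Day 12 over day 4 gave 3 rises and 1 fall (median 0.10) and 4 rises and 3 falls (median 0.05), where 14.7% of all genes were higher and 12.3% lower. All 3 comparisons share libraries with each other.

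**Figure D3:**
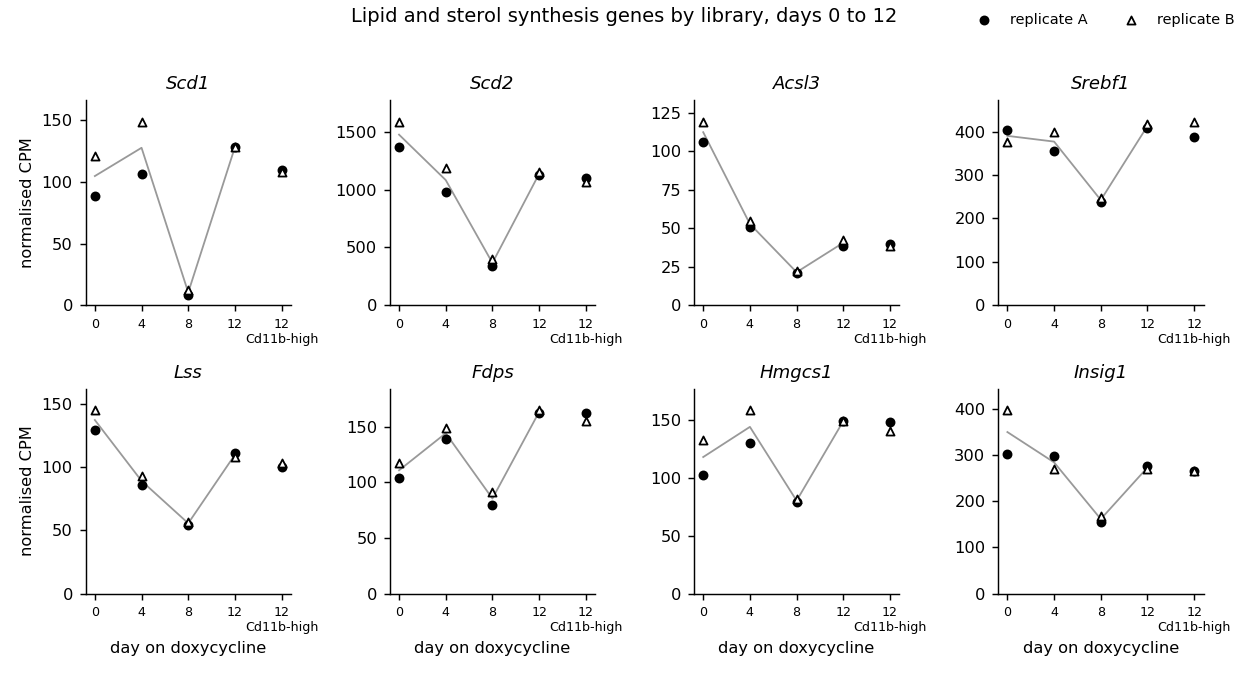
Normalised CPM of 8 genes of fatty acid and cholesterol synthesis in each library at days 0, 4, 8 and 12 and in Cd11b-high cells of day 12, with circles for replicate A, triangles for replicate B and a line through the means of total cells. Every panel has its lowest values at day 8, where Scd1 was at 7.97 and 12.6 CPM.

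Promoters of cholesterol genes often carry an NF-Y box beside the element read by the sterol-sensing factor. The letters CCAATC, on either strand of the 250 bases before a start, were in 13 of the 18 cholesterol genes with a promoter in the table (72.2%). The share was 22.6% over tested genes and 16.6% over all genes of the table. Among fatty acid genes they were in 2 of 9, among the 192 genes higher at day 12 in 47 (24.5%), and among the 48 lower genes in 12 (25.0%). The letters TCACNCCAC, a form of the sterol element, were in 1 of the 18, Hmgcs1, beside 1.23% of tested genes and 1.22% of all genes of the table. Windows of 4 cholesterol genes that rose are shown, with TCACNCCAC in capitals for Hmgcs1 and, in capitals, CCAATC for Mvd and its reverse complement GATTGG for Lss and Srebf2 (RefSeq, GRCm38.p6, chr13:119690171-119690270 plus, chr8:122443423-122443522 minus, chr10:76531465-76531564 plus and chr15:82147081-82147180 plus). Each motif was counted on its own, and a match is a description of the letters, not of binding.
Hmgcs1: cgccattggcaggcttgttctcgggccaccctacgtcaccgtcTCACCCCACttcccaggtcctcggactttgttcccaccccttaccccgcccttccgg
Mvd: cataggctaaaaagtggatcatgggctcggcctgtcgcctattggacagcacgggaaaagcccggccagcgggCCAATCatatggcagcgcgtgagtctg
Lss: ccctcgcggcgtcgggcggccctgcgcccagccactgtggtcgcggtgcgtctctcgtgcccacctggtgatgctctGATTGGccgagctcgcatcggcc
Srebf2: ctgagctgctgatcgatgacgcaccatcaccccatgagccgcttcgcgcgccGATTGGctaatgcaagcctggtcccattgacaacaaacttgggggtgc

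Some genes of glucose breakdown rose as well. Of 21 glycolysis genes, 6 rose and 0 fell (median log2 fold 0.38). Slc2a3, a high-affinity glucose transporter, stood at 77.0 and 81.8 CPM at day 12, against 29.0 and 28.5 CPM at day 8 (log2 fold 1.47, SE 0.11, edgeR adjusted p = 3.6e-06). Aldoc, an aldolase, was at 60.6 and 60.4 CPM, against 25.8 and 29.3 CPM (log2 fold 1.14, SE 0.19). Slc16a3, the lactate exporter, was at 193.8 and 192.9 CPM, against 120.5 and 126.5 CPM (log2 fold 0.65, SE 0.12). Hk2 (0.81), Pfkl (0.78) and Pfkp (0.66), which phosphorylate glucose and fructose 6-phosphate, were the other calls. Without Day8 A 1 call was left, without Day8 B 3, and without either Day12 library 2, and Slc2a3 held each time. Of 18 hypoxia response genes, 1 rose and 0 fell (median 0.17), Bhlhe40, a clock-linked repressor, at 84.3 and 92.6 CPM, against 37.5 and 42.1 CPM (log2 fold 1.15, SE 0.16).

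Among the other large rises were genes of several kinds. Lipg, endothelial lipase, stood at 22.9 and 20.4 CPM at day 12, against 1.08 and 2.74 CPM at day 8 (log2 fold 3.48, SE 0.27, edgeR adjusted p = 3.6e-06). Avil, advillin, an actin-bundling protein of the villin family, stood at 61.5 and 69.0 CPM, against 8.11 and 10.4 CPM (log2 fold 2.82, SE 0.21, edgeR adjusted p = 3.6e-06). Cyp11a1, the side-chain cleavage enzyme that turns cholesterol into pregnenolone, stood at 669.7 and 669.1 CPM, against 222.2 and 230.7 CPM (log2 fold 1.56, SE 0.20, edgeR adjusted p = 0.00039). In these 3 genes both Day12 values lay far above either Day8 value. Adgre4, an adhesion receptor of myeloid cells, was at 34.7 and 36.9 CPM, against 12.0 and 10.5 CPM (log2 fold 1.68, SE 0.18). Ikzf3, the zinc-finger factor Aiolos, was at 38.5 and 39.7 CPM, against 11.4 and 15.2 CPM (log2 fold 1.55, SE 0.19). Lgals3, galectin-3, was at 35.6 and 33.5 CPM, against 10.5 and 11.5 CPM (log2 fold 1.65, SE 0.34), a call lost without any 1 library (edgeR adjusted p up to 0.26).

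Secreted mediators and their receptors gave few but sizeable rises. Of 14 chemokine and cytokine genes, 4 rose and 0 fell (median log2 fold 0.69), and 2 calls were left without any 1 library. Ccl9, a chemokine for myeloid cells, stood at 5.56 and 5.88 CPM at day 12, against 0.811 and 1.47 CPM at day 8 (log2 fold 2.31, SE 0.31). Csf1, the macrophage growth factor, stood at 85.7 and 88.9 CPM, against 35.6 and 35.0 CPM (log2 fold 1.31, SE 0.10, edgeR adjusted p = 3.8e-06). Il4 (log2 fold 1.85) and Il6 (1.85) were called at low levels, with Il6 at 1.96 and 2.08 CPM, against 0.608 and 0.510 CPM, and the Il6 call was lost without any 1 library (edgeR adjusted p up to 0.14). Ccr1, a receptor of Ccl9, was at 25.1 and 25.0 CPM, against 8.92 and 8.10 CPM (log2 fold 1.56, SE 0.18). Of 10 complement and complement receptor genes, 3 rose and 0 fell (median 0.65). Cfp, properdin, which stabilises the complement convertase, was at 25.6 and 24.4 CPM, against 8.31 and 8.55 CPM (log2 fold 1.57, SE 0.16). Cd55, which dissociates that convertase, was at 45.0 and 46.6 CPM, against 17.2 and 16.1 CPM (log2 fold 1.46, SE 0.22). C3ar1, the C3a receptor, had 111 reads over both Day12 libraries and 3 over both Day8 libraries, a ratio of 24 per depth with an exact 95% counting interval from 8.01 to 118, and its call was lost without 1 library (edgeR adjusted p up to 0.068). Of 19 eicosanoid enzymes and receptors, 3 rose and 0 fell (median 0.20), namely Alox15, Tbxas1, the thromboxane synthase (log2 fold 1.25, SE 0.30), and Ptgir, the prostacyclin receptor (0.64, SE 0.11). The Tbxas1 call was lost with library size alone (edgeR adjusted p = 0.066), with a minimum of 1 CPM (0.052) and without any 1 library (up to 0.44), and that of Ptgir in 2 of 4 such fits (up to 0.085).

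Most genes of mature myeloid function were not called, but the share called in each list below was above the 2.24% of all genes. The lists overlap. Ncf1 counts among PU.1 targets and oxidase subunits, Tyrobp among PU.1 targets and ITAM genes, and Lyz2 among PU.1 targets and macrophage markers. Of 21 PU.1 target genes, 3 rose and 1 fell (median log2 fold 0.05), 2 of 30 in the Fc receptor and ITAM signalling list rose and 0 fell (median 0.20), and of 7 NADPH oxidase subunits 1 rose and 0 fell (median 0.16). In the fit of the 4 libraries, where 1825 genes rose and 1577 fell, these lists held 9 rises and 4 falls, 15 and 4, and 3 and 0. Ptprc, the phosphatase CD45, stood at 68.1 and 65.4 CPM at day 12, against 28.1 CPM in both Day8 libraries (log2 fold 1.25, SE 0.13, edgeR adjusted p = 6.8e-05). Tyrobp, the ITAM adaptor DAP12, stood at 192.4 and 194.3 CPM, against 125.2 and 118.9 CPM (log2 fold 0.66, SE 0.13). Ncf1, a cytosolic oxidase subunit, stood at 427.4 and 418.4 CPM, against 291.0 and 304.8 CPM (log2 fold 0.51, SE 0.09). Each of these was apart between the days, but Tyrobp and Ncf1 lost their calls without any 1 library (edgeR adjusted p up to 0.14 in both). Pirb, an inhibitory receptor whose family members share sequence, so that its count is uncertain, was at 14.8 and 15.4 CPM, against 3.99 and 3.95 CPM (log2 fold 1.93, SE 0.23). Markers of macrophages and monocytes gave 2 rises and 1 fall among 14 (median -0.06). Ly6c2, a surface antigen of monocytes with a near-identical paralogue and so an uncertain count, was at 1348 and 1407 CPM, against 729.2 and 742.4 CPM (log2 fold 0.90, SE 0.11). Adgre1, the F4/80 antigen, was at 42.3 and 43.1 CPM, against 24.5 and 22.3 CPM (log2 fold 0.87, SE 0.16, edgeR adjusted p up to 0.12 without 1 library). Lyz2, lysozyme, was at 354.4 and 319.2 CPM, against 604.4 and 553.1 CPM (log2 fold -0.78, SE 0.14, edgeR adjusted p up to 0.11 without 1 library). The macrophage and PU.1 lists both lost calls whichever of the 4 libraries was left out. Their median log2 folds then ran from 0.01 to 0.15 and from 0.06 to 0.08, and the log2 fold of Lyz2 from -0.86 to -0.71.

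Of 39 haematopoietic transcription factors, 3 rose and 0 fell (median log2 fold 0.13), and 0 to 1 were called without 1 library. Besides Gata1 these were Runx1, a core factor of blood cell formation, at 158.2 and 161.8 CPM at day 12, against 98.9 and 115.7 CPM at day 8 (log2 fold 0.58, SE 0.11), and Myc, at 186.2 and 180.0 CPM, against 137.3 and 139.7 CPM (log2 fold 0.40, SE 0.09). The call of Runx1 was lost in 3 of the 4 fits without 1 library (edgeR adjusted p up to 0.25), and that of Myc in all 4 (up to 0.33), by library size alone (0.098) and without mitochondrially encoded genes (0.051). Factors of the granulocyte path were not called, with Cebpa at 94.7 and 81.6 CPM, against 85.6 and 92.9 CPM (log2 fold -0.02), and Cebpe at 504.5 and 533.2 CPM, against 586.2 and 548.9 CPM (log2 fold -0.13). Of 15 JAK-STAT5 signal and feedback genes, 2 rose and 0 fell (median 0.27), the survival kinase Pim2 (log2 fold 1.0, SE 0.18) and the feedback inhibitor Socs1 (0.94, SE 0.19), of which at most 1 was called without 1 library. Of 18 integrin chains, 1 rose and 0 fell (median 0.26), Itgb7, at 698.0 and 695.0 CPM, against 479.0 and 465.9 CPM (log2 fold 0.56, SE 0.11, edgeR adjusted p up to 0.14 without 1 library).

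Immediate-early genes answer growth signals within minutes. Of 22, 1 rose and 3 fell (median log2 fold -0.13). Dusp2, a phosphatase that switches off MAP kinases, stood at 33.3 and 33.9 CPM at day 12, against 78.2 and 90.2 CPM at day 8 (log2 fold -1.32, SE 0.17, edgeR adjusted p = 0.00052). Egr1, a zinc-finger factor, stood at 26.8 and 25.4 CPM, against 45.3 and 79.1 CPM (log2 fold -1.26, SE 0.29, edgeR adjusted p = 0.039). Egr2, its relative, stood at 0.684 and 0.400 CPM, against 1.15 and 4.08 CPM (log2 fold -2.29, SE 0.54, edgeR adjusted p = 0.038). The Day8 replicates of Egr1 and Egr2 lay far apart, with B higher. The Egr1 call was lost in the fit of the 4 libraries (adjusted p = 0.16 by edgeR), without the withdrawal libraries (0.084) and in 3 of the 4 fits without 1 library (up to 0.28). Egr2 was lost with DESeq2 (0.054), with limma-voom (0.1) and in 3 of those 4 fits (up to 0.43). Klf6, a zinc-finger factor of the same list, rose (log2 fold 0.63, SE 0.13, edgeR adjusted p up to 0.34 without 1 library), and 4 members fell without Day8 A, against 1 without any 1 of the others. Outside that list, Sod3, the extracellular superoxide dismutase, was at 5.56 and 5.44 CPM, against 16.6 and 14.4 CPM (log2 fold -1.49, SE 0.19). Itm2a, a membrane protein, was at 34.8 and 28.6 CPM, against 76.2 and 68.0 CPM (log2 fold -1.19, SE 0.19), a call lost in 2 of the 4 fits (edgeR adjusted p up to 0.087). Smaller falls were those of Clec18a, a lectin (log2 fold -0.97, SE 0.20), Tspan2, a tetraspanin (-0.88, SE 0.20), and Zcchc14 (-0.76, SE 0.13), all lost in 3 or more of those fits (edgeR adjusted p up to 0.27).

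Lists of growth and housekeeping gave few calls in the fit of all 16 libraries, where 2.24% of all genes were called. Some leaned to 1 side. The fitted fold was above 1 in 43 of 48 ribosome biogenesis genes and in 30 of 36 ATF4 and amino acid genes. It was above 1 in 14 of 70 nuclear respiratory chain genes, beside 6935 of all 13652 genes. In the fit of the 4 libraries, where 1825 genes rose and 1577 fell, these lists gave 22 rises and 0 falls, 20 and 1, and 3 and 26. The 46 mitosis genes (median log2 fold -0.01), 78 cytosolic ribosomal proteins (-0.05), 70 nuclear respiratory chain genes (-0.14), 15 mitochondrially encoded genes (-0.19), 22 endoplasmic reticulum chaperone genes (0.13), 11 heat-shock genes (0.01), 22 p53 target genes (0.01), 14 BCL2 family genes (0.14) and 9 MHC class II genes (-0.32) held 0 calls. Of 50 DNA replication genes, 0 rose and 1 fell (median -0.08), Tk1, thymidine kinase, at 62.1 and 61.8 CPM at day 12, against 83.0 and 86.4 CPM at day 8 (log2 fold -0.45, SE 0.09). Of 48 ribosome biogenesis genes, 1 rose and 0 fell (median 0.18), Polr1a, the large subunit of RNA polymerase I (log2 fold 0.61, SE 0.15). Of 36 ATF4 and amino acid genes, 2 rose and 0 fell (median 0.30), the glycine transporter Slc6a9 (log2 fold 0.93, SE 0.14) and the proline enzyme Aldh18a1 (0.48, SE 0.12). Of 37 interferon-stimulated genes, 2 rose and 0 fell (median 0), the exonuclease Isg20 (log2 fold 0.90, SE 0.22) and the dNTP hydrolase Samhd1 (0.59, SE 0.13). Of 12 stem and progenitor genes, 0 rose and 1 fell (median 0.17), Prom1, at 3.65 and 3.44 CPM, against 6.62 and 7.21 CPM (log2 fold -0.97, SE 0.16). Except for Slc6a9, each of these calls was lost without 1 library or more (edgeR adjusted p up to 0.55). Markers of other lineages gave 0 calls, with medians of 0.10 over 3 erythroid genes, 0.18 over 8 of megakaryocytes and platelets, -0.17 over 4 of B cells, -0.14 over 5 of T and NK cells and 0.55 over 6 of dendritic cells. Their summed levels at day 12 and at day 8 were 3.33 and 3.76, against 2.57 and 3.06 CPM for erythroid genes, 811.1 and 842.5, against 623.7 and 642.0 CPM for megakaryocyte genes, 240.8 in both, against 273.8 and 259.6 CPM for B cell genes, 178.6 and 170.1, against 193.8 and 177.2 CPM for T and NK cell genes, and 53.3 and 52.5, against 49.2 and 52.7 CPM for dendritic cell genes. The part of other cell types in the results above was not tested.

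**Figure D4:**
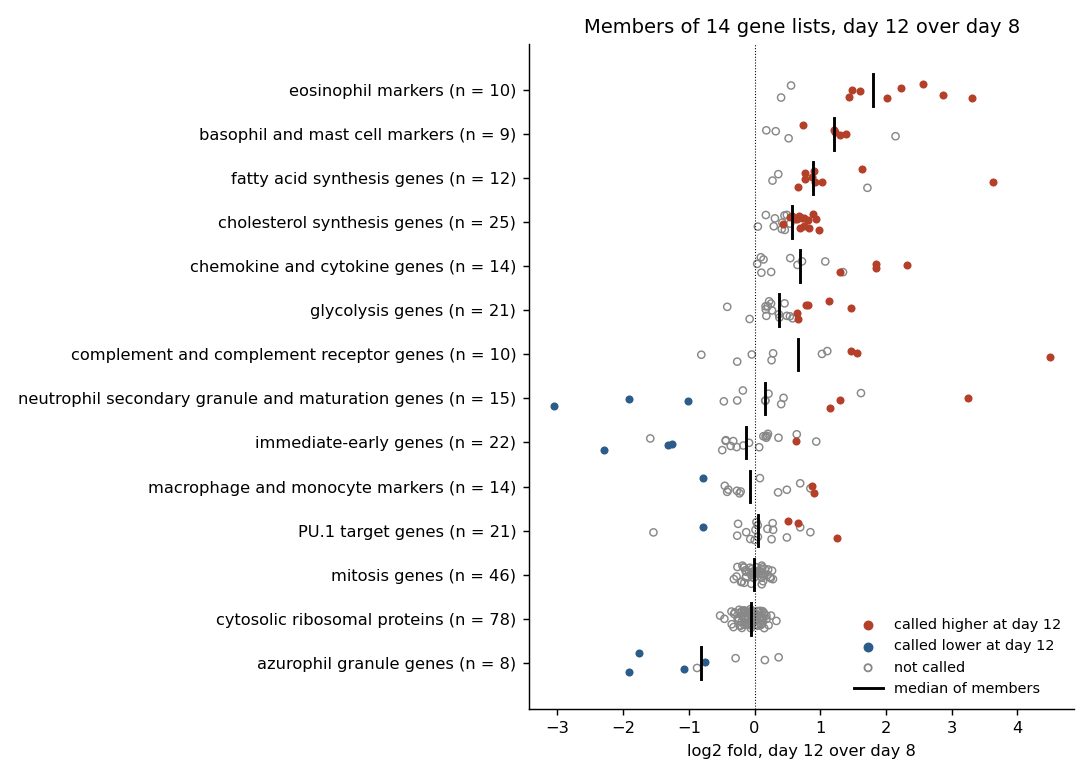
Log2 fold of day 12 over day 8 for the measured members of 14 gene lists, 1 point per gene, filled where edgeR called the gene and open where it did not, with a bar at each list's median. Eosinophil markers (median 1.81) lie at the top and azurophil granule genes (median -0.82) at the bottom, while mitosis genes and ribosomal proteins sit about 0 with no call.

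The last interval was set beside the first, which shares no library with it. Of the 248 genes higher at day 12 than at day 8, 101 had been called higher at day 4 than at day 0 (40.7% of the 248, 2.63% of the 3846 genes higher in that interval) and 81 lower (32.7%, and 1.91% of 4236), where 28.2% and 31% of all genes were called. Of the 58 lower genes, 16 had been higher (27.6%) and 27 lower (46.6%) in the first interval. Genes of both early directions were thus among the later rises. Ear1, at 1.498 and 1.29 CPM at day 4, against 26.2 and 15.6 CPM at day 0, had fallen first, as had Epx, at 117.4 and 164.4 CPM, against 4930 and 1937 CPM. Alox15, at 9.14 and 11.2 CPM at day 4, against 0.652 and 0.0738 CPM at day 0, had risen in both. S100a8 and Camp, which fell in the last interval, had risen in the first, at 928.5 and 696.7 CPM against 3.81 and 7.67 CPM, and at 55.0 and 37.9 CPM against 0.0544 and 0.369 CPM.

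**Figure D5:**
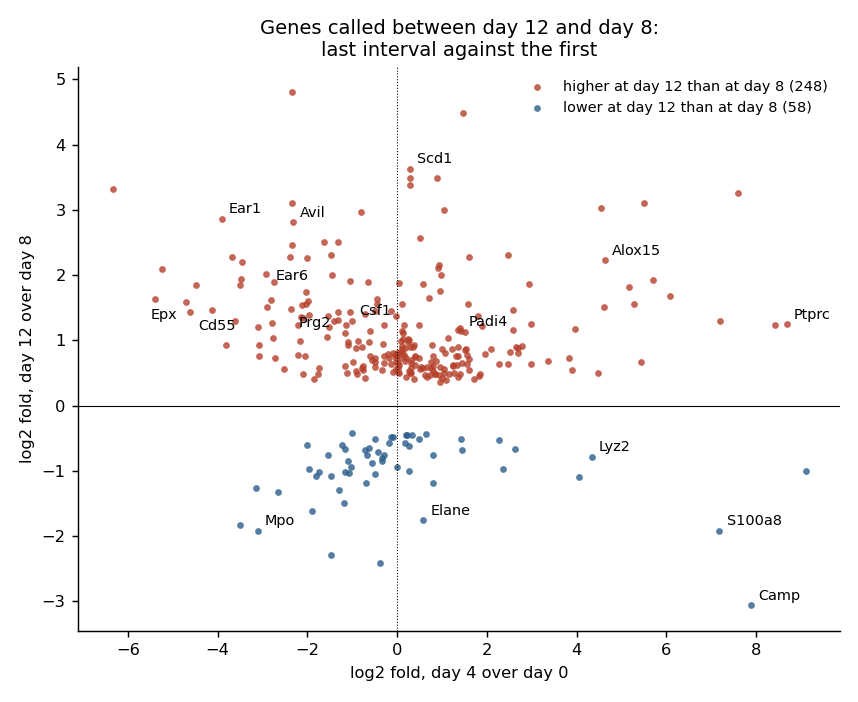
Log2 fold of day 12 over day 8 (vertical axis) against log2 fold of day 4 over day 0 (horizontal axis) for the 306 genes called in the last interval, with the 248 higher genes and the 58 lower genes in different colours. Genes of both colours lie on both sides of the vertical line, with Ear1 and Epx to the left and Alox15 and Ptprc to the right among the rises.

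Cd11b-high cells sorted at day 12 gave a view of the same genes in other libraries. Against day 4, edgeR called 14.7% of all genes higher and 12.3% lower in the sorted cells. Of the 248 genes higher in the last interval, 157 were higher there (63.3%, and 7.84% of the 2003 higher genes) and 6 lower, with a median log2 fold of 0.71. Of the 58 lower genes, 37 were lower (63.8%, and 2.2% of 1680) and 3 higher, with a median of -0.72. The medians over all genes were near 0, at -0.01. The sort and the start at day 4 both differ from the main comparison and cannot be told apart from the time. The genes were chosen by their level at day 12, and the sorted cells are of that same day and line. A shared direction against an earlier day therefore says little. Whether these cells came from the cultures of the Day12 libraries is not in the titles. In the sorted cells Scd1 was at 109.7 and 108.3 CPM, Ear1 at 61.8 and 52.5 CPM, and Mpo at 21.1 and 16.2 CPM.

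Whether the change from day 8 to day 12 differed from that from day 4 to day 8 was tested as a difference of the 2 changes, which share the Day8 libraries. By edgeR it was called in 340 genes (2.49%), 226 with a higher change in the last interval (1.66% of all genes) and 114 with a lower one (0.835%). Leaving out 1 library left 37 to 167 of the first kind and 20 to 87 of the second, with the lowest counts without Day8 A and Day8 B. Of the cholesterol genes, 16 of 25 were called with a higher change and 0 with a lower one (median 1.02), and of the fatty acid genes 7 of 12 and 0 (median 1.46). Of the 22 immediate-early genes, 1 was called with a higher change and 8 with a lower one (median -0.89). Eosinophil genes had risen in both intervals. At day 8, 10 of 10 were called higher than at day 4 (median log2 fold 3.41), beside 6.78% of all genes. Of the eosinophil genes, 0 were called with a higher change and 2 with a lower one (median -1.28).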

How the data were processed

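RNA sequencing was read from FACS-sorted AML246 cells in 16 libraries of 8 groups, and the comparison used the 2 libraries titled Day12 and the 2 titled Day8. The deposited values are raw read counts, whole numbers listed by Entrez gene, and featureCounts, edgeR and limma with the mm10 genome are named, without versions or roles, per the submitters' processing notes. The aligner and the strand setting are not given in the sources used here. Total counts ran from 12962801 to 26509803 per library, and intervals cover counting error only. Symbols came from the RefSeq table for GRCm38.p6, which named 13216 of 13652 genes. The planned filter (filterByExpr) removed 0 genes.

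Counts were scaled with TMM and tested in 1 edgeR 4.0.16 fit of all 16 libraries with a mean per group (glmQLFit, robust, 8 residual degrees of freedom, common biological coefficient of variation 10.9%, R 4.3.3), with Benjamini-Hochberg adjustment over all genes. SE is the size of the log2 fold over the square root of F. RPKM values are scaled CPM over the deposited gene length. There were 6 comparisons. The replicates of a group differed beyond sampling noise (chi-square per degree of freedom 2.90 at day 12 and 5.65 at day 8), so none was counted as a repeat. The other groups, which also set the spread of the main fit, lay higher. They ran from 6.27 in Cd11b-high cells to 71.3 at 12 days after withdrawal, with 12.3 at day 0 and 18.5 at day 4. Other settings tried were RLE scaling, scaling by library size alone, no filter, a minimum mean of 1 CPM, a replicate block, the 4 libraries compared, no mitochondrially encoded genes, DESeq2 1.42.0, limma-voom (limma 3.58.1) and leaving out each library. A fit without the 6 withdrawal libraries was added after seeing the data.

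Named genes were Spi1, Itgam, Ear1 and Alox15, the 15 greatest rises and falls among called genes that averaged 10 CPM or more, were not predicted genes and had groups apart, and from each list the 3 called members of lowest adjusted p, 77 genes in all without items that are not reported here. Other list members given with values were chosen after their values were seen. The 40 lists held 1019 entries, of which 887 were measured. The comparison, lists and rules were chosen with earlier results of these data known. On simulated counts of 13543 genes, changes were set in the Day12 libraries. Of the genes altered by 1.5-fold, 2-fold and 4-fold, edgeR called 52.2%, 95.5% and 98.5%, with 5 false calls among 169. These values hold for the simulated counts, and how closely their spread matched that of the real libraries was not tested. Promoters are the 250 bases before each start in RefSeq's promoter table, with all printed windows upstream of the RefSeq gene and outside exons annotated by GENCODE, and transcripts were aligned with Biopython.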

Additional observations from a re-analysis of the deposited data

Results flagged for a closer look

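The test of the difference between the change from day 8 to day 12 and the change from day 4 to day 8 singled out 340 of 13652 genes by edgeR, and 36 of the named genes were among them. Both changes share the Day8 libraries, so a Day8 value that stands low or high moves both. The values below are log2 differences, the last change minus the one before.

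Named members of the fatty acid, cholesterol and glycolysis lists with higher last changes were Scd1 at 7.26, Scd2 at 3.21, Acsl3 at 2.22, Hmgcs1 at 1.74, Fdps at 1.69, Lss at 1.66, Aldoc at 2.40, Slc2a3 at 1.90 and Slc16a3 at 1.31. In Scd1 the change from day 4 to day 8 was -3.63 and that from day 8 to day 12 was 3.63.

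Other named genes with higher last changes were Ifitm6 at 3.74, Ccr1 at 3.42, Pirb at 3.26, Lgals3 at 2.97, Ccl9 at 2.78, Ptprc at 2.49, Klf6 at 1.53, Cfp at 1.47, Ptgir at 1.47, Tyrobp at 1.42, Cyp11a1 at 1.40, Pim2 at 1.38, Ncf1 at 1.35, Bhlhe40 at 1.21, Samhd1 at 1.05, Padi4 at 1.03, Ly6c2 at 0.92 and Csf1 at 0.88.

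Lower last changes were those of Egr2 at -5.99, Egr1 at -5.51, Adgre4 at -3.06, Dusp2 at -2.94, Mpo at -2.62, Prss34 at -2.15, Sod3 at -1.75, Clec18a at -1.75 and Tk1 at -0.88. Adgre4 and Prss34 rose in both intervals, by less in the last, while Egr1, Egr2 and Dusp2 rose to day 8 and fell after it.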

How the results depend on the processing

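None of the 306 calls reversed under any alternative, but all alternatives reused libraries that did not overlap in these genes. A reversal was therefore hardly possible, and its absence is no test of the calls. The counts of 248 higher and 58 lower genes moved to 1825 and 1577 in the fit of the 4 libraries, with 2 residual degrees of freedom and a common coefficient of variation of 4.54%, and to 669 and 435 without the withdrawal libraries (7.01%). DESeq2 gave 91 lower genes and 366 higher. Leaving out 1 of the 4 libraries, which leaves a group with 1 sample that is assumed to vary like the rest, gave 63 to 94 higher and 8 to 19 lower genes. The cause of these moves was not tested. The block on replicate letters gave 284 higher and 63 lower. A minus B at day 12 and at day 8 correlated at -0.09 over 9188 genes. With so few libraries, that value cannot tell whether a letter marks a shared culture or batch. Among named genes the block ended 1 call, that of Egr1 (edgeR adjusted p = 0.074).

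In the other comparisons, leaving out 1 library gave 260 to 670 higher and 330 to 547 lower genes for day 8 over day 4, 605 to 1727 and 573 to 1404 for Cd11b-high cells over day 4, and 720 to 1754 and 682 to 1345 for day 12 over day 4. For the difference of the 2 changes it gave 37 to 167 higher and 20 to 87 lower. In each comparison listed here the full fit gave more calls. Library size alone, which shifted the median of all genes by -0.08, ended 8 of the 75 calls of named genes. In simulated counts 52.2% of 1.5-fold changes were called, so real changes of that size could be missed. The parts of depth and of the assumed spread in that share were not tested.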
